A study of Homo sapiens with 12 samples.

Results

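The guanylate-binding proteins (GBPs) are large interferon-inducible GTPases that gather on membranes around intracellular pathogens and pathogen-containing vacuoles and help to open them to cytosolic sensing. Transcription of their genes is known to be driven mainly by interferon gamma, through factors such as IRF1 that bind short promoter elements, among them the gamma-activated sequence and the interferon-stimulated response element. Some members, GBP1, GBP2 and GBP5 among them, carry a C-terminal signal for prenylation, the lipid attachment that anchors a protein to membranes. The members were taken by symbol: GBP1, GBP2, GBP3, GBP4, GBP5 and GBP6, which are 6 of the 39368 gene symbols counted. All 6 passed the filter on low counts in both cell lines, GBP5 only with its vehicle libraries, in which it was higher, so its calls and the counts that include it are descriptions.

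CAL27 and HSC3 are HPV-negative head and neck squamous cell carcinoma (HNSCC) lines, both derived from tongue tumours. Each line was stably transduced with tet-MUC1shRNA, a doxycycline (DOX)-inducible short hairpin RNA in the pLKO-tet-puro vector that silences MUC1, the gene of a transmembrane mucin with the subunits MUC1-N and MUC1-C. Cells received 0.1% DMSO as vehicle or 500 ng/ml DOX for 7 days, giving 4 groups (CAL27 vehicle, CAL27 DOX, HSC3 vehicle and HSC3 DOX) of 3 RNA sequencing libraries, 12 in all. Every group carries the vector, and no DOX-treated library with a control hairpin was analysed here, so DOX and the silencing of MUC1 cannot be told apart. The labels say that cells were grown in triplicate, without saying whether on separate occasions, so the p-values measure the spread between parallel cultures of each transduced line.

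Total counts ran from 92866845 to 126328662 in CAL27 and from 89730914 to 169065103 in HSC3. MUC1 fell from 60.9 ± 2.61 to 3.28 ± 0.274 CPM (the count relative to the TMM-scaled library total, SD, n = 3) in CAL27 and from 1.60 ± 0.161 to 0.214 ± 0.0834 CPM in HSC3, a log2 fold change of -4.21 and -2.88, respectively. From the frequency of zero counts, 1 RNA molecule was estimated to stand for 2.66 to 3.55 counts in CAL27, 4.40 to 7.66 in HSC3 vehicle and 9.14 to 17.5 in HSC3 DOX libraries. The 16 to 46 MUC1 counts of the HSC3 DOX libraries thus stand for an estimated 1.39 to 3.94 molecules per library. These estimates are approximate. All 9 squamous markers (KRT5, KRT14, TP63 and others) exceeded 1 CPM in every group. Their summed level was 6490 to 7310 CPM in vehicle and 3074 to 3685 CPM in DOX libraries of both lines, and its part in the results was not tested. The summed levels of 7 fibroblast, 7 leukocyte and 5 endothelial markers were at most 14.1, 7.88 and 15.4 CPM.

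The members form 1 cluster on chromosome 1 (GRCh38, GENCODE v44). On the minus strand lie GBP3 (chr1:89006679-89022894), GBP1 (chr1:89051882-89065360), GBP2 (chr1:89106132-89150456), GBP4 (chr1:89181144-89198942) and GBP5 (chr1:89256189-89272860), and GBP6 (chr1:89364059-89388160) lies on the plus strand. Promoters from 250 bases before to 50 bases after the RefSeq start (GRCh38.p14) were matched for 4 of the 6, GBP1, GBP3, GBP4 and GBP6. They were searched on both strands for the core of the interferon-stimulated response element (GAAA, any 2 bases, GAAA) and for the core of the gamma-activated sequence (TTC, any 3 bases, GAA), which 3.57% and 7.66% of 35116 promoters contained. The stretches below are shown because they hold the matches, in capitals, or, for GBP6, because they are the 60 bases just before a start whose promoter held neither core.

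GBP1, minus strand, chr1:89065324-89065353: gtgatttgaacgaagtacTTTCAGTTTCat
GBP3, minus strand, chr1:89022853-89022882: cTTCCTTGAAagaagtacTTTCAGTTTCat
GBP4, minus strand, chr1:89198935-89198964: cccacaaagtgcatgtccTTTCAATTTCgg
GBP6, plus strand, chr1:89363999-89364058: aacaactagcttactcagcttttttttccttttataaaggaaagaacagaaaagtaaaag

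The response element core lay at bases -127 to -118 from the start of GBP1, at 3 to 12 in GBP3 and at -4 to 6 in GBP4, and GBP3 also held the gamma-activated core at -15 to -7. The last 19 bases of the GBP1 and GBP3 stretches were the same, and the GBP4 stretch shared none of its last bases with them in an unbroken run. Positions count from the RefSeq start, which for GBP1 and GBP3 differs from the GENCODE start. These letter matches are descriptions, and no binding was measured.

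In vehicle-treated cells, the lines differed in which GBP was most abundant. Levels of different genes were compared as CPM per kb of merged exon, scaled over all 12 libraries. In CAL27 vehicle cells GBP4 had 16.2 ± 0.697, GBP1 14.2 ± 0.604, GBP3 12.6 ± 0.660, GBP6 10.9 ± 0.464 and GBP2 6.56 ± 0.414, and GBP5 was far below at 0.0636 ± 0.00992 CPM per kb (SD, n = 3). The libraries of neighbours in this order did not overlap. The order depended on the length used: per kb of the longest transcript GBP1 (21.3) stood above GBP4 (16.2) and GBP2 (11.6) above GBP6 (10.9).

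In HSC3 vehicle cells a single member dominated. GBP3 had 16.5 ± 0.883 CPM per kb, followed by GBP1 at 2.84 ± 0.210, GBP6 at 1.86 ± 0.0451, GBP4 at 0.539 ± 0.0298, GBP2 at 0.169 ± 0.0324 and GBP5 at 0.0172 ± 0.00750, again with no overlap between neighbours. GBP3 held 75.3% ± 1.69 of the summed level of the 6 genes in HSC3 vehicle and 20.8% ± 0.283 in CAL27 vehicle cells.

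Compared directly in vehicle, 5 of the 6 members, 4 without GBP5, were called lower in HSC3 than in CAL27 cells. A call here means an adjusted p under 0.05 and a change over 2-fold. Of all 20694 genes tested, 18.7% were called lower and 13.2% higher, and the median log2 difference was -0.12. The counts of each line were deposited separately. In this comparison, line therefore cannot be told apart from how each line was sequenced and counted. GBP2 was 39.0-fold lower (log2 -5.28, SE 0.175, edgeR adjusted p = 6.43e-13) and GBP4 30.1-fold lower (log2 -4.91, SE 0.176, adjusted p = 1.60e-12). GBP6 and GBP1 were 5.83-fold and 5.01-fold lower. GBP5 differed by log2 -1.88 (SE 0.555, adjusted p = 0.00934), and its call was lost without CAL27 vehicle replicate 2 (adjusted p = 0.0531). No member was called higher, by edgeR or DESeq2, and 1 was higher at an unadjusted p under 0.05. That gene was GBP3, by log2 0.40 (SE 0.0812, adjusted p = 4.76e-04), and with library totals as scaling the difference was 0.13 with an adjusted p of 0.147.

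In CAL27 cells, DOX lowered the family. GBP1, which is known to coat cytosolic bacteria, stood at 94.2, 92.6 and 100.1 CPM in the vehicle libraries and at 41.9, 39.5 and 34.2 CPM in the DOX libraries. The groups did not overlap, and GBP1 was 2.48-fold lower (log2 -1.31, SE 0.0626, adjusted p = 2.50e-10). GBP2, another prenylated member, had 48.8, 52.0 and 55.8 CPM in vehicle and 21.6, 18.2 and 13.99 CPM in DOX libraries. Its 2.91-fold decrease (log2 -1.54, SE 0.174) had an adjusted p of 0.00150.

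GBP4 was the most strongly changed of the abundant members. Its vehicle libraries held 108.2, 105.8 and 114.6 CPM, and its DOX libraries held 32.2, 20.9 and 19.1 CPM. The DOX library in column 4 was higher than the other two, yet below every vehicle library. GBP4 was 4.56-fold lower (log2 -2.19, SE 0.232, adjusted p = 0.00177), with log2 values from -2.46 to -2.04 when each library was left out in turn.

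GBP5, known as a promoter of NLRP3 inflammasome assembly, was rare in CAL27. Its counts were 90, 89 and 75 in vehicle and 10, 8 and 15 in DOX libraries, or 0.769 ± 0.124 and 0.106 ± 0.0213 CPM. The decrease was 7.09-fold (log2 -2.83, SE 0.335, adjusted p = 7.13e-07), on DOX counts that stand for an estimated 2.60 to 4.77 molecules per library.

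GBP6, encoded on the opposite strand from the others, had 55.5, 54.1 and 58.6 CPM in vehicle and 24.9, 25.5 and 24.4 CPM in DOX libraries. It was 2.25-fold lower (log2 -1.17, SE 0.0481, adjusted p = 1.57e-13). GBP3 changed least, from 56.9, 57.9 and 62.9 to 48.9, 42.8 and 41.9 CPM. Its groups did not overlap, but its log2 fold change of -0.41 (SE 0.0572, adjusted p = 1.01e-05) did not reach 2-fold.

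Thus 5 of the 6 members, 4 without GBP5, were called lower in CAL27, beside 5.11% of 19239 genes tested, and 6 passed the adjusted p of 0.05 in that direction, beside 21.8%. No member was higher by edgeR or DESeq2, and 0 were higher at an unadjusted p under 0.05, whereas 1.31% of all genes were called higher and 22.6% rose by the adjusted p alone. The median log2 fold change of the members was -1.43 (-1.31 without GBP5), and that of all genes was -0.01.

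**Figure D1:**
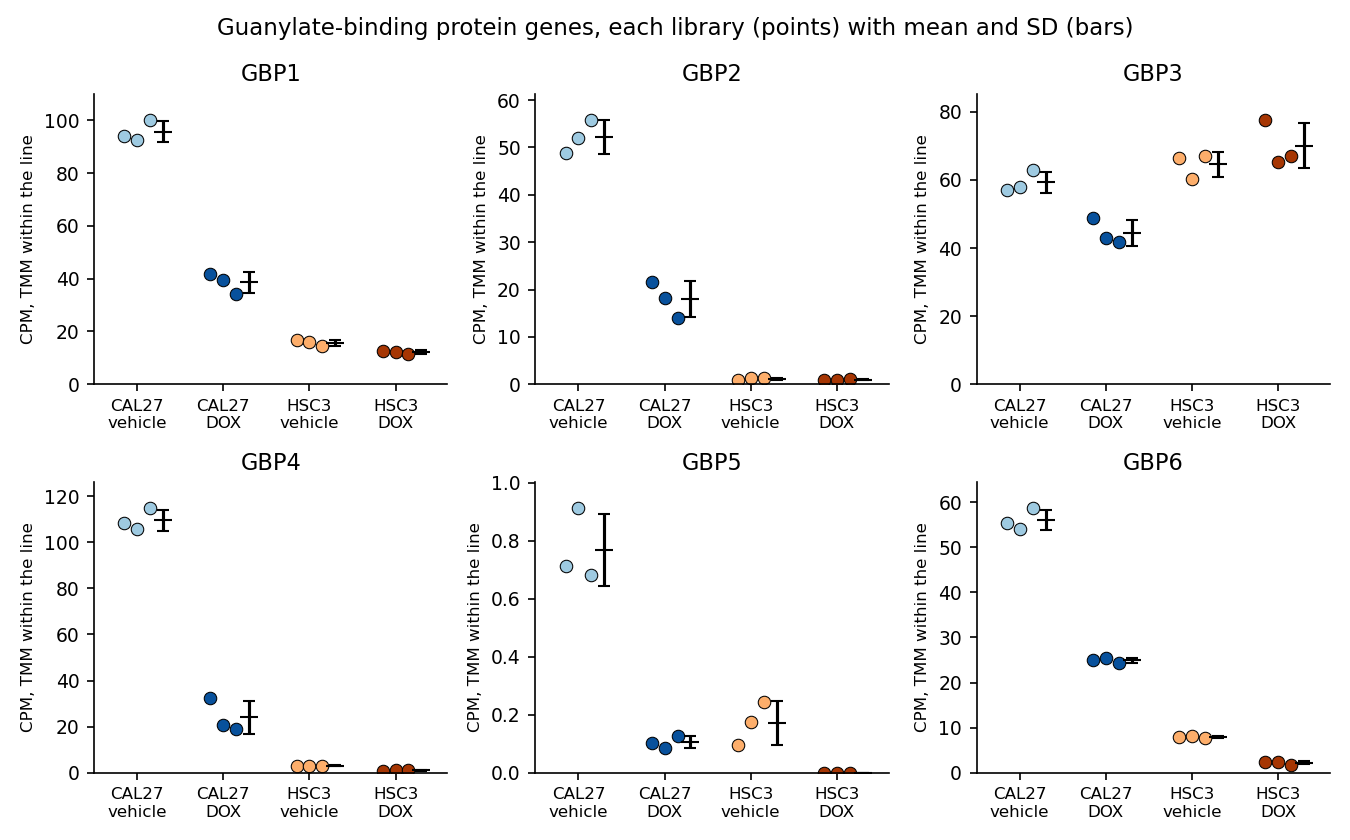
Each panel plots 1 gene, with CPM (TMM scaling within each line, axis from 0) for every library of the 4 groups as points, and the mean and SD beside them. In CAL27 the DOX points of all 6 genes lie below the vehicle points, whereas in HSC3 the points of GBP2 and GBP3 overlap and GBP5 is at 0 in all 3 DOX libraries.

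In HSC3 cells, the members split. GBP6 had 7.89, 8.11 and 7.82 CPM in vehicle and 2.43, 2.29 and 1.80 CPM in DOX libraries, with no overlap. Its decrease was 3.65-fold (log2 -1.87, SE 0.157, adjusted p = 8.94e-06). GBP4 had 3.08, 3.12 and 2.83 CPM in vehicle and 0.898, 1.21 and 1.04 CPM in DOX libraries, a 2.87-fold decrease (log2 -1.52, SE 0.211, adjusted p = 3.08e-04). Its DOX counts stand for an estimated 8.48 to 19.5 molecules per library.

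GBP1 had 16.7, 16.1 and 14.5 CPM in vehicle and 12.7, 12.4 and 11.4 CPM in DOX libraries. The groups did not overlap, and the log2 fold change was -0.38 (SE 0.104, adjusted p = 0.0192), under 2-fold. The adjusted p was 0.0946 without HSC3 vehicle replicate 1, 0.0841 without vehicle replicate 2 and 0.0785 without DOX replicate 3. GBP2 was rare, at 0.870, 1.24 and 1.22 CPM in vehicle and 0.995, 0.874 and 1.05 CPM in DOX libraries. Its counts stand for an estimated 15.9 to 25.7 molecules per library in vehicle and 9.40 to 14.1 in DOX. These groups overlapped, and the difference of log2 -0.19 (adjusted p = 0.686) had a 95% interval from -0.81 to 0.43, which leaves room for a change of either sign.

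GBP3, the dominant member of this line, had 66.5, 60.2 and 66.9 CPM in vehicle and 77.6, 65.4 and 67.1 CPM in DOX libraries. The groups overlapped, and the log2 difference of 0.12 (adjusted p = 0.349) had a 95% interval from -0.07 to 0.30. A decrease of the size seen for GBP4 or GBP6 lies outside that interval.

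GBP5 had 12, 16 and 32 counts in HSC3 vehicle and 0, 0 and 0 counts in DOX libraries. The vehicle counts stand for an estimated 1.73 to 4.18 molecules per library. A count of 0 would allow up to 0.0177 to 0.0223 CPM by counting error alone if every count were a separate molecule. In the DOX libraries 1 molecule stands for 9.14 to 17.5 counts, so the level that a count of 0 allows is higher than that. No fold is given for this reason. Kept by the filter through its vehicle libraries alone, GBP5 had an adjusted p of 0.0135, but did not pass without HSC3 vehicle replicate 2 (adjusted p = 0.0732) or replicate 3 (adjusted p = 0.0943), and all its counts divided by the counts per molecule fell under the filter.

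In all, 3 of the 6 members, 2 without GBP5, were called lower in HSC3, beside 4.4% of 18021 genes tested, and 4 passed the adjusted p of 0.05 in that direction, beside 15.4%. By edgeR and DESeq2 0 were called higher, and 0 were higher at an unadjusted p under 0.05. Of all genes, 1.58% were called higher and 13% rose by the adjusted p alone.

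**Figure D2:**
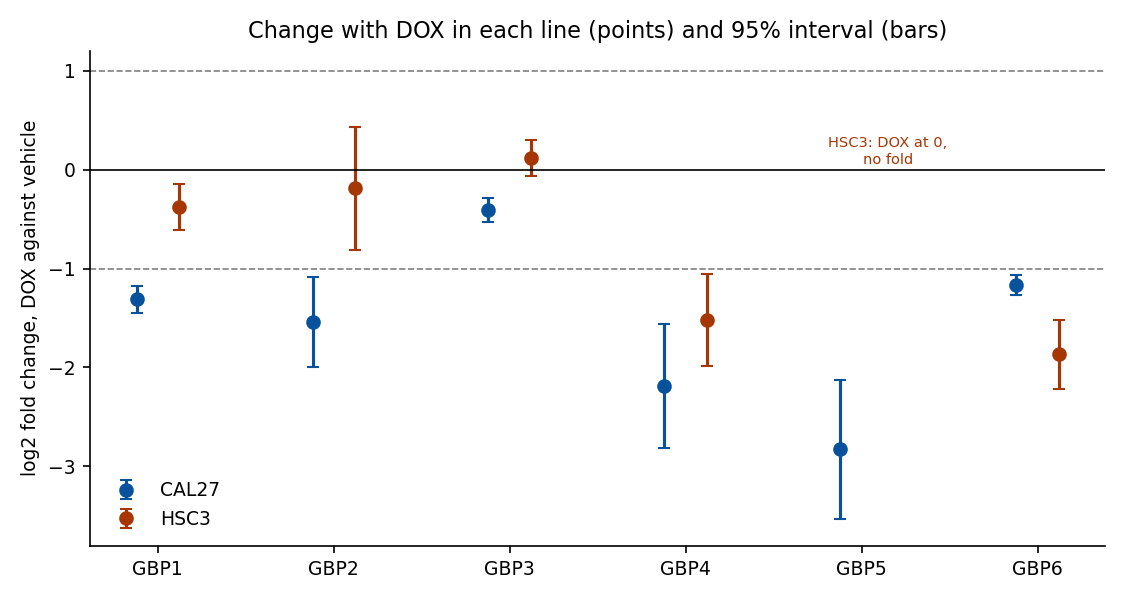
Points are log2 fold changes of DOX against vehicle for each member in CAL27 and HSC3, bars are 95% intervals, and dashed lines mark 2-fold. The CAL27 point lies below the HSC3 point for GBP1 to GBP4 and above it for GBP6, and GBP5 has no HSC3 point since its DOX libraries were at 0.

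The difference between the lines in the DOX response was tested as an interaction over 12 libraries, as HSC3 minus CAL27 log2 fold change. Among all genes, 2.19% were called higher and 3.02% lower in this test, and of the members with a size given only GBP2 was called. Among the 5 members with a size given, GBP2 differed most, by 1.36 (SE 0.231, adjusted p = 6.05e-04), with the more negative value in CAL27. GBP1 differed by 0.94 (SE 0.118, adjusted p = 4.34e-05) and GBP3 by 0.53 (SE 0.115, adjusted p = 0.00360), also with the more negative value in CAL27. GBP6 went the other way, by -0.69 (SE 0.128, adjusted p = 0.00118), falling further in HSC3. The GBP4 difference of 0.66 (SE 0.240) did not pass, at an adjusted p of 0.0657 and a 95% interval from 0.15 to 1.18 before adjustment. It did pass by DESeq2 (0.68, adjusted p = 0.0139) and without CAL27 DOX column 4 (0.95, adjusted p = 3.16e-04). By edgeR, the adjusted p of GBP4 was 0.121 without the filter on low counts and 0.325 on estimated molecules. With each library left out in turn it reached 0.159, without HSC3 DOX replicate 2. For GBP5 the adjusted p was 0.0144 against HSC3 DOX libraries at 0 and 0.324 on estimated molecules, and no size is given. The change of MUC1 itself differed in this test, by 1.36 (SE 0.247, adjusted p = 0.00101), with the more negative value in CAL27. MUC1 was also 31.7-fold lower in HSC3 than in CAL27 vehicle cells. The part of MUC1 in the differences between the lines was not tested.

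The makeup of the family changed with these responses. In CAL27 the summed level of the 6 genes was 60.5 ± 2.703 CPM per kb in vehicle and 25.9 ± 3.02 in DOX cells, and in HSC3 it was 22.0 ± 0.751 and 21.1 ± 1.97. Since GBP3 changed least, its share was 36.6% ± 1.31 in CAL27 DOX and 85.5% ± 1.04 in HSC3 DOX cells. In CAL27 DOX cells GBP3 (9.46 ± 0.874 CPM per kb) was above GBP1 (5.75 ± 0.612), while GBP6 (4.84 ± 0.106) and GBP4 (3.57 ± 1.08) overlapped. In HSC3 DOX cells the order of vehicle was retained per kb of merged exon, from GBP3 (18.02 ± 1.85) and GBP1 (2.19 ± 0.132) down to GBP5 at 0. Per kb of the longest transcript it was not. There GBP2 (0.234 to 0.283) stood above GBP4 (0.162 to 0.215) in HSC3 DOX libraries. In HSC3 vehicle libraries GBP4 (0.505 to 0.560) stood above GBP2 (0.233 to 0.336).

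**Figure D3:**
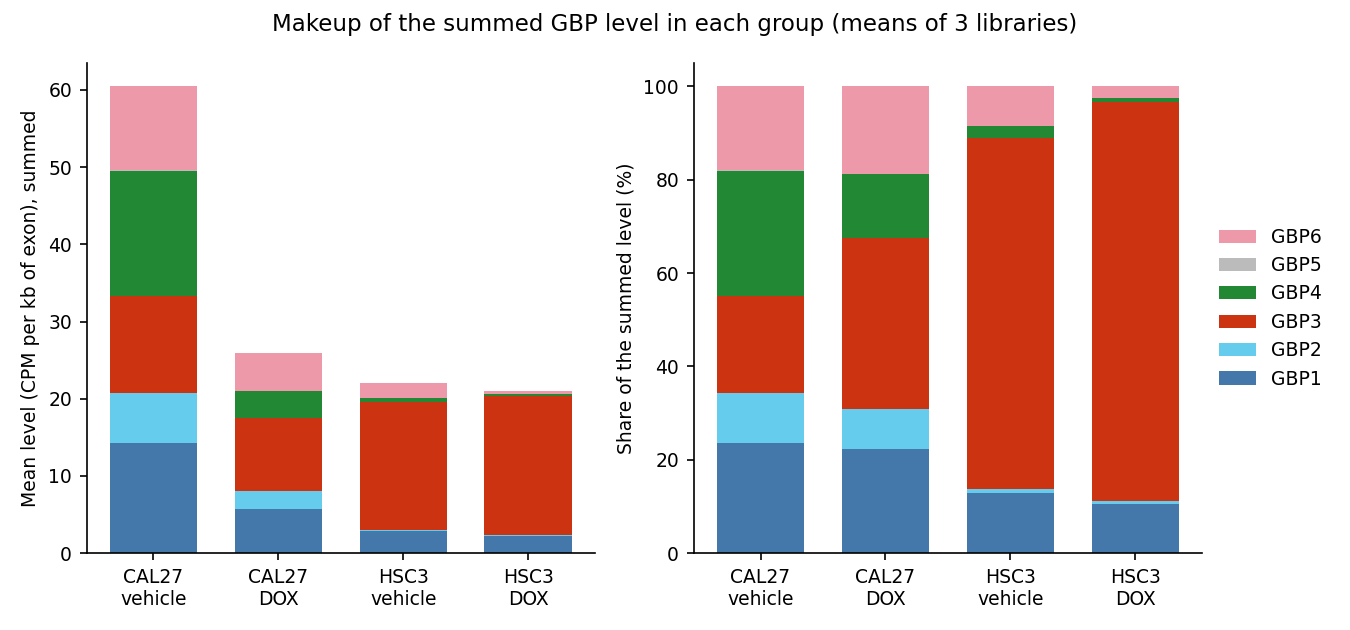
The left panel stacks the mean level of each member (CPM per kb of exon, 3 libraries) in the 4 groups, and the right panel gives each member's share of that sum in percent. GBP3 fills 20.8% of the sum in CAL27 vehicle and 85.5% in HSC3 DOX cells.

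Genes of the pathway were then counted in lists, by the calls of edgeR in each line. Of all genes tested, 5.11% were called lower and 1.31% higher in CAL27, and 4.4% lower and 1.58% higher in HSC3. A list with 0 genes called higher had 0 by DESeq2 as well, and 1 to 8 of its genes were above vehicle at an unadjusted p under 0.05. Of 20 upstream genes kept in CAL27 (interferon receptors, JAK and STAT proteins, IRFs and feedback regulators), 5 were called lower and 0 higher, with a median log2 fold change of -0.22. SOCS1, a feedback inhibitor of JAK kinases, fell by 1.52 on the log2 scale, and USP18, a brake on type I interferon signalling, by 1.29. IRF9, the DNA-binding subunit of a complex that acts in type I interferon signalling, was also called, on 22 to 30 counts in vehicle and 0 to 6 in DOX libraries. In HSC3, of 19 genes kept, IFNGR1, the ligand-binding chain of the interferon gamma receptor, changed by -1.44 (-1.201 in CAL27), and SOCS3, another feedback inhibitor, rose by 1.21, with a list median of -0.19. IRF1, added here after its values were seen, had a log2 fold change of -0.72 (edgeR adjusted p = 3.56e-06) in CAL27 and 0.24 (adjusted p = 0.278) in HSC3.

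Of 25 other interferon gamma target genes, 10 were called lower and 0 higher in CAL27, with a median of -0.78. The chemokines CXCL10 (-3.57), CXCL9 (-3.39) and CXCL11 (-2.50) changed most, each an attractant for T cells. In HSC3, of 23 kept, 3 were called lower and 0 higher, with a median of -0.01. They were WARS1, a tryptophanyl-tRNA synthetase, at -2.24 (-1.85 in CAL27), and CXCL10 and CXCL11, whose DOX libraries had 0 to 18 and 0 counts, respectively.

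Of 20 genes acting with or downstream of the GBPs (inflammasome genes, autophagy receptors, galectins and others), 1 was called lower in CAL27. This is near the 5.11% of all genes. The gene was APOL3, at -1.004, just over 2-fold, with a list median of -0.13. In HSC3, 0 of 19 kept were called, by edgeR or DESeq2, with 4 below and 8 above vehicle at an unadjusted p under 0.05 and a median of 0.07. Of 9 genes of prenylation and other modification of GBPs, 0 were called in CAL27, by edgeR or DESeq2, where 2 were below and 4 above vehicle at an unadjusted p under 0.05 and the median was 0.02. In HSC3, RCE1, the protease that trims prenylated proteins, fell by 1.02, with a list median of -0.15. Of 16 relatives (other large GTPases of the dynamin superfamily and related families), MX1 and MX2, antiviral GTPases, were called in both lines, at -2.85 and -3.22 in CAL27 and at -1.92 and -2.37 in HSC3. DNM1, a dynamin of endocytosis, fell by 1.41 in HSC3. The relatives had medians of 0.05 in CAL27 and -0.02 in HSC3.

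Genes beside the cluster were followed in the same fits. GBP1P1, a GBP1 pseudogene, went from 5.19 ± 0.227 to 0.891 ± 0.245 CPM in CAL27 (log2 -2.56, SE 0.161, adjusted p = 1.22e-10) and from 1.71 ± 0.253 to 1.32 ± 0.205 CPM in HSC3 (log2 -0.37, adjusted p = 0.302). GBP7, which overlaps GBP2 on the same strand and ends before GBP4, had 2 to 12 counts in CAL27 and 0 to 16 in HSC3. It fell under the filter within each line. The flanking genes outside the family were not called in CAL27. PKN2, GTF2B and LRRC8B had log2 fold changes of 0.05, 0.001 and 0.04 there, none past the test, and KYAT3, RBMXL1 and LRRC8C had -0.32, -0.62 and -0.55, each past the test but under 2-fold. In HSC3, LRRC8C, a subunit of volume-regulated anion channels, was the one flank called (log2 -1.44, SE 0.0715, adjusted p = 2.62e-07). RBMXL1 had -0.76, KYAT3 -0.47 and GTF2B 0.37 in HSC3, each past the test but under 2-fold.

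**Figure D4:**
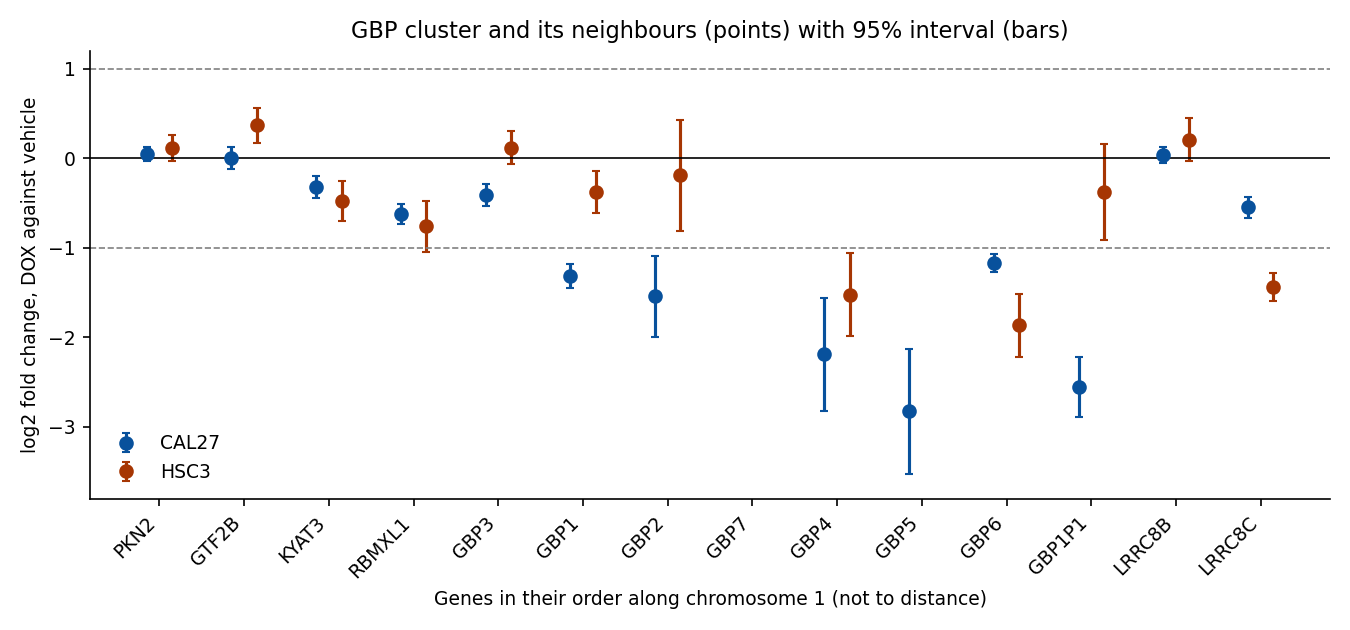
Log2 fold changes of DOX against vehicle (points, with 95% intervals) are drawn in the order of the genes on chromosome 1, in CAL27 and HSC3. In CAL27 the points below the 2-fold line are GBP1, GBP2, GBP4, GBP5, GBP6 and GBP1P1, and in HSC3 they are GBP4, GBP6 and LRRC8C, with GBP7 under the filter in both lines and GBP5 at 0 in HSC3 DOX.

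Reads from near-identical copies, or from exons that overlap another gene, could be split between genes. Of the 100-base windows of their transcripts, GBP2 shared 7.21% with GBP7 and GBP1 0.867% with GBP1P1, GBP4 0.0973% with CASP10, and GBP3, GBP5 and GBP6 none with another gene. Of the 50-base windows, 7.76% of GBP1, 8.82% of GBP2, 4.78% of GBP3, 4.28% of GBP4, 0.465% of GBP5 and 0.69% of GBP6 were shared with other genes. For GBP1, GBP2, GBP3 and GBP4 those genes included other GBPs. On the same strand, GBP2 and GBP7 overlap each other, over 8.6% of GBP2 and 25.5% of GBP7 exon. The windows that GBP2 and GBP7 share may thus be the same bases of the genome. A Y_RNA gene overlapped 1.54% of GBP3 exon on the same strand. Genes on the opposite strand overlapped 2.41% of GBP4 and 2.96% of GBP5 exon.

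The genes whose log2 CPM was most like each member over the 12 libraries, by Pearson r and as a description across 2 lines that differ in level, were KRT13 (r = 0.994) for GBP1, TRAFD1 (0.999) for GBP2, ATXN3 (0.991) for GBP3, ACP5 (0.996) for GBP4, ADPGK (0.985) for GBP5 and LYPD6B (0.998) for GBP6. Next came PARP9 and SSBP3 for GBP1, GLUL and CEACAM1 for GBP2, KDM5B for GBP3, PTPRG and ID1 for GBP4, PTMS and VPS13C for GBP5, and RPS6KA5 and HSPA2 for GBP6, with r from 0.979 to 0.999. These libraries fall into 4 groups, so r mainly follows the line and treatment means.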

How the data were processed

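RNA was measured in 12 libraries (TRIzol extraction, stranded mRNA kit). The authors deposited 1 table of raw counts per gene for each line, made with FastQC 0.11.9, STAR 2.7.9a and featureCounts of Subread 2.0.1 on GRCh38, per the submitters' processing notes; the study's methods name the release GRCh38.74. The gene annotation used for counting, the strand setting and the treatment of multi-mapping reads are not given in the sources used here. Near-identical or overlapping GBP transcripts may therefore share reads. Replicates were compared, and every pair differed by more than sampling noise, with a chi-square per degree of freedom from 7.71 to 141. HSC3 DOX replicate 1 stood apart, at 141 and 90.9 against replicates 2 and 3, which differed from each other by 23.2. It also had the fewest genes detected (19128), the highest mitochondrial share (9.63%) and the most counts per molecule (17.5).

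Counts were tested in R 4.3.3 with edgeR 4.0.16 (TMM, filterByExpr with a minimum count of 10, robust quasi-likelihood test) within each line, and over 12 libraries for the interaction and the vehicle comparison. P-values were adjusted by Benjamini-Hochberg over all genes tested. A call needed an adjusted p under 0.05 and over 2-fold. DESeq2 1.42.0 and other settings were tried. The smallest exact permutation p with 3 against 3 is 0.1. The fits were tested on simulated data. Total counts give the depth, and floors (3 counts per library) cover counting error only. The floors take every count as a separate molecule, so they are too low where 1 molecule stands for several counts. The CAL27 DOX columns are numbered 4 to 6 and were matched to their group alone.

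The members and lists were chosen with earlier results of these data known. Named were the 6 members, MUC1, up to 3 called genes per list, line and direction, the nearest 4 protein-coding genes on each side (2 of them not analysed here) and other GBP genes of the cluster, and the 3 genes most like each member, of which 1 is not reported here. Promoter sequences are from RefSeq.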

Additional observations from a re-analysis of the deposited data

Results flagged for a closer look

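For 4 members the DOX response differed between the lines at an adjusted p under 0.05 and any fold in the interaction test of edgeR. Of these, only GBP2 was over 2-fold. The share of all genes passing at any fold is not given, so the number of members is a description. Differences are HSC3 minus CAL27 log2 fold change. The difference was 0.94 for GBP1, 1.36 for GBP2 and 0.53 for GBP3. It was -0.69 for GBP6, whose decrease was larger in HSC3. The mitochondrial share of counts was 5.94% to 6.51% in HSC3 vehicle and 7.58% to 9.63% in HSC3 DOX libraries, and its part in these differences was not tested.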

How the results depend on the processing

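Under the other settings run, 328 values of single members kept their direction and their call (adjusted p with 2-fold), 1 passed it anew, 1 fell short and none reversed. These leave out GBP5 in HSC3 and in the interaction, which have no size: its adjusted p ran from 5.52e-05 to 0.0943 and from 0.0101 to 0.324. GBP1 passed 2-fold in the interaction (1.02) without CAL27 DOX column 4, and GBP5 lost its call between vehicle lines (-1.76) without CAL27 vehicle replicate 2. Leaving out 1 library at a time gave 5 to 5 members called in CAL27, 2 to 3 in HSC3, 4 to 5 between vehicle lines and 2 to 3 in the interaction, and 16 to 19 and 8 to 10 list genes in CAL27 and HSC3. At any fold, 69 list genes in CAL27 (18 over 2-fold) and 37 in HSC3 (9 over 2-fold) passed. In the interaction, 5 members passed at any fold, 4 over 1.5-fold and 1 (GBP2) with counts per molecule, beside 2 as reported. The shares of all genes under these other settings are not given, so these numbers are descriptions. The results on levels were less stable than the fold changes: under the other settings 19 of them moved and 9 stayed the same. Per kb of the longest transcript, GBP4 held 21.7% of the sum in CAL27 vehicle and GBP3 73.4% in HSC3 vehicle cells. Of the HSC3 libraries sharing a number, only those numbered 2 deviated together (r = -0.20, 0.35 and -0.35 for numbers 1, 2 and 3). Not every library correlated best with its own number. With the replicate block 2 members were called in HSC3 (GBP5 adjusted p = 0.0605) and 1005 genes in all, against 1077 without it. For CAL27 and the interaction no paired analysis was possible because the CAL27 DOX columns carry no replicate number that matches the vehicle columns. The vehicle comparison sets HSC3 against CAL27 cells and was not paired. Scaling by library totals moved the median of all genes between vehicle lines from -0.12 to -0.39. The depth limits GBP5.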
